A study of Mus musculus with 6 samples.

Results

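Open chromatin was described here at exons, untranslated regions and gene ends that lie away from promoters in EML, a mouse cell line of blood precursor cells that grows in suspension. The intervals came from 1 list of ATAC-seq peaks of lin-CD34+ cells, a method in which a transposase cuts and tags accessible DNA. An interval was kept when its centre lay more than 1000 bp from the nearest transcription start site (TSS) and when the authors had annotated it as exon, 5' UTR, 3' UTR or TTS, the window from 100 bp before to 1000 bp after a transcript's end. This gave 11633 of the 143365 distinct intervals of the list, or 8.11%. The rule also left out intervals labelled as repeats or CpG islands, but this removed 0 of them, because exon, UTR and TTS labels carry no repeat label. That the intervals lie outside repeats is therefore not shown.

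All 6 libraries of the study came from the EML line (strain label B6D2F1, build mm10), sorted with magnetic beads and flow cytometry. STAT3 and SOX4 were mapped by ChIP-seq in lin-CD34+ cells and GABPa in lin-CD34- cells, each population had 1 control library, and ATAC-seq was run in lin-CD34+ cells only. Every group was 1 library without a replicate, so no p-value is given, and brackets after a share hold the exact Clopper-Pearson 95% interval, which covers counting error only. The list gives positions without a score, and its read depth is unknown. The size of an interval is therefore its width and the number of times it is entered, since the same interval can appear up to 8 times among those described.

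Promoters are the best known sites of open chromatin, because nucleosomes are displaced there for transcription to begin. Enhancers open in the same way, and although most lie in introns or between genes, some overlap coding exons or the ends of genes. In blood precursors, lineage factors and cytokine-activated factors such as STAT3 bind at both kinds of site. SOX4 is an HMG-box factor and GABPa a factor of the ETS family that mostly binds at promoters.

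A few of the intervals hold or adjoin a transcription start of the RefSeq table, and sequence is shown for them because only there does the reference used give bases inside an interval. RefSeq start windows (250 bases before to 50 after a start, GRCm38.p6, the assembly named mm10) overlapped 48 of the 11633 intervals, 0.413% (0.304 to 0.547), and 22 intervals covered a start. The 22 had a median width of 444.5 bp and 12 of them were entered more than once. The start belonged to the host gene itself at Coq10a, which acts in coenzyme Q function, at the semaphorin gene Sema4b, at the proteasome ATPase gene Psmc2, at Cfap126 and at the autophagy gene Atg7. In the others it belonged to another gene, such as Arhgef39 under exon 5 of Car9 (1081 bp, entered 3 times) and the DNA repair gene Nhej1 under the end of Slc23a3 (1006 bp, entered 6 times). Capitals below mark an ETS motif (CCGGAAG, or CTTCCGG when it lies on the other strand) or the STAT motif TTCNNNGAA, and each stretch of 30 bases lies inside the open interval.
Psmc2, exon 2 of 13, chr5:21786711-21786740, plus strand: ggcgcggagctaCTTCCGGtggggaagaga
Gm52243 start in the 3' UTR of Meltf, chr16:31897261-31897290, minus strand: atgtcctggtttCTTCCGGttgagctctgt
Gm33562, start outside the interval at exon 1 of Onecut1, chr9:74863323-74863352, minus strand: cttccacatcctCCGGAAGgtctcccgacc
Gm38795 start at exon 14 of Trpv6, chr6:41621609-41621638, plus strand: ctccacagagcTTCTAGGAAcaagagaaat

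The Psmc2 motif lies 24 bases before that gene's start, in an interval of 661 bp entered 4 times. Read on both strands over the whole window, the ETS motif stood in 4 of the 51 start windows that overlap an interval (7.84%). It stood in 8.86% of all 32851 windows. The windows of a pair of Gm52243 starts hold the same motif and count separately among the 4. The STAT motif stood in 4 of 51 (7.84%) against 8.30% of all. The SOX motif AACAAAG stood in 1 of 51 (1.96%) against 5.85% of all. A match is a description of these letters and not a site of binding.

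Exons made up 5870 of the intervals, 50.5% (49.5 to 51.4). TTS windows made up 3330 (28.6%), 3' UTRs 2339 (20.1%) and 5' UTRs 94 (0.808%). Most intervals were narrow. The median width was 125 bp (quartiles 85 and 197, range 73 to 1484), and 1780 intervals (15.3%) had exactly 73 bp, the smallest width in the whole list. Exons were the narrowest class with a median of 120 bp, followed by 3' UTRs with 128 bp, TTS windows with 133 bp and 5' UTRs with 140 bp. Introns outside repeats had a median of 124 bp and promoters 316 bp, so exons and gene ends resembled introns in width. A width of at least 500 bp was reached by 412 intervals, 3.54%.

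**Figure D1:**
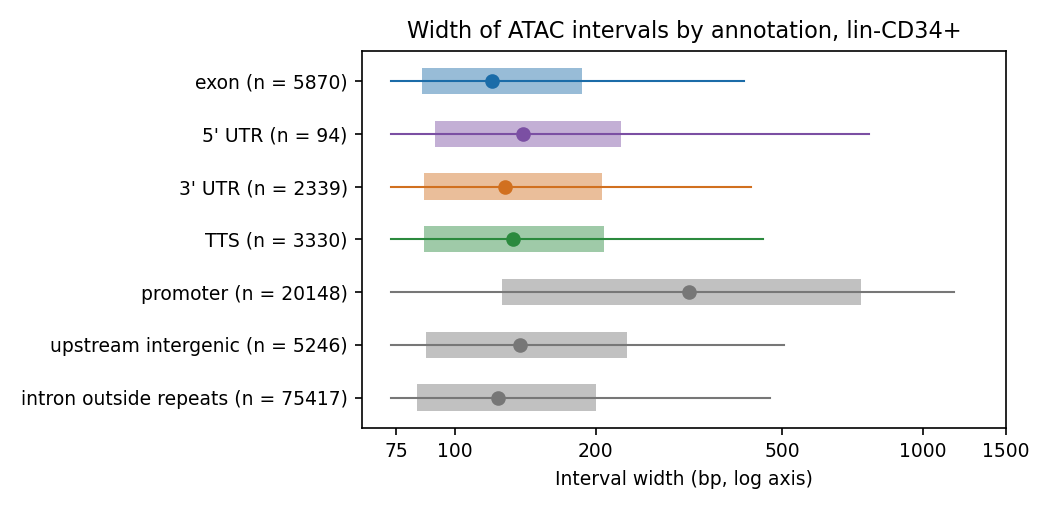
Width of distinct ATAC intervals (bp, log axis) in lin-CD34+ cells by annotation. Dots are medians, boxes the quartiles and lines the range from the 5th to the 95th percentile. The 4 coloured classes centre between 120 and 140 bp and promoters at 316 bp.

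Of the 11633 intervals, 1238 were entered more than once, 10.6% (10.1 to 11.2), against 16.8% of all distinct intervals. This number and the width moved together. Intervals entered once had a median width of 115 bp and reached at most 760 bp, whereas those entered more than once had a median of 386 bp and at least 140 bp. The share was 8.50% (7.80 to 9.24) in exons, 12.3% (11.0 to 13.7) in 3' UTRs and 13.1% (12.0 to 14.3) in TTS windows. In 5' UTRs 15 of 94 were entered more than once, 15.96% (9.22 to 24.95). Introns outside repeats stood at 12.0% (11.7 to 12.2), upstream intergenic intervals at 17.4% and promoters at 51.0%. Exons thus lay below introns by more than the counting error, while the intervals of 3' UTRs and TTS windows overlapped that of introns. The introns leave out labelled repeats and CpG islands, which the exon, UTR and TTS labels cannot do, so the classes were not filtered alike. Away from promoters, labelled repeats stood at 7.53% and CpG islands at 45.5%. The effect of this unlike filter was not tested.

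Near the limit of 1000 bp the widths had already levelled off from those beside a TSS. Exon, UTR and TTS intervals within 250 bp of a TSS had a median width of 643.5 bp and 69.5% were entered more than once. Just outside the rule, at 900 to 1000 bp, 122 intervals had a median width of 153.5 bp and 13.1% were entered more than once. Just inside it, at 1000 to 1100 bp, 115 intervals had 129 bp and 16.5%. Farther out the share fell slowly, to 5.50% beyond 100000 bp. From 5000 to 50000 bp exons stayed below the other classes at like distances: at 10000 to 20000 bp it was 7.43% in exons (6.02 to 9.06), 11.5% in 3' UTRs, 13.2% in TTS windows and 13.5% in introns. The median distance of all intervals was 12057 bp, and 682 (5.86%) lay upstream of the nearest TSS, where the list stops short of 5000 bp.

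**Figure D2:**
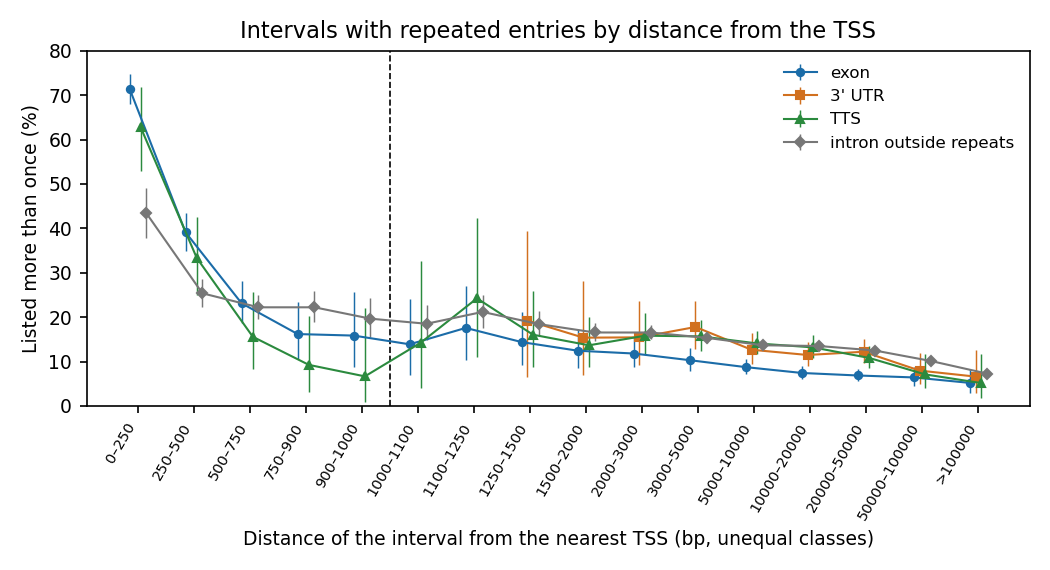
Share of distinct ATAC intervals entered more than once (%, y axis) by distance from the nearest TSS (bp, unequal classes on the x axis). Bars are exact 95% intervals and the dashed line is the limit of 1000 bp. Exons run below introns from 5000 to 50000 bp, while 3' UTRs and TTS windows stay near the introns.

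Within transcripts, the open exons were mostly internal. Of 5870 exon intervals, 3927 (66.9%) lay in internal exons after the second, 1203 (20.5%) in the last of several exons, 536 (9.13%) in the second, 115 (1.96%) in the first and 89 (1.52%) in genes of a single exon. The annotated transcripts had a median of 13 exons and up to 313. How all annotated exons divide over these places was not counted, so the shares show no excess or lack of any place. Internal exons after the second had the lowest share entered more than once, 7.51% (6.71 to 8.38), against 11.6% (8.98 to 14.6) in the second exon and 9.64% (8.03 to 11.5) in the last. Almost all 3' UTR intervals, 2333 of 2339, were in the last exon. First exons are scarce here because the rule leaves out the 1000 bp beside a TSS.

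Gene ends were placed against the RefSeq end of the host gene, meaning the gene whose transcript the authors' annotation names, where its strand could be read from the RefSeq start table. Of 2576 TTS intervals placed in this way, 2275 (88.3%) lay from 100 bp before to 1000 bp after the gene's end, so the label held for most. They were spread over the window, with a median of 517 bp past the end. There were 135 in the last 100 bp of the gene and 116 in the first 100 bp after it. The number per 100 bp was 219 at 200 to 300 bp and reached 265 at 700 to 800 bp. TTS intervals were thus fewer around the end itself than from 200 bp beyond it. Upstream of the TTS window, 3' UTR intervals numbered 105 per 100 bp at 300 to 500 bp before the end and 75 at 100 to 200 bp before it. Only positions annotated as exon or UTR can count there, so those numbers are not on the same footing as the ones downstream.

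**Figure D3:**
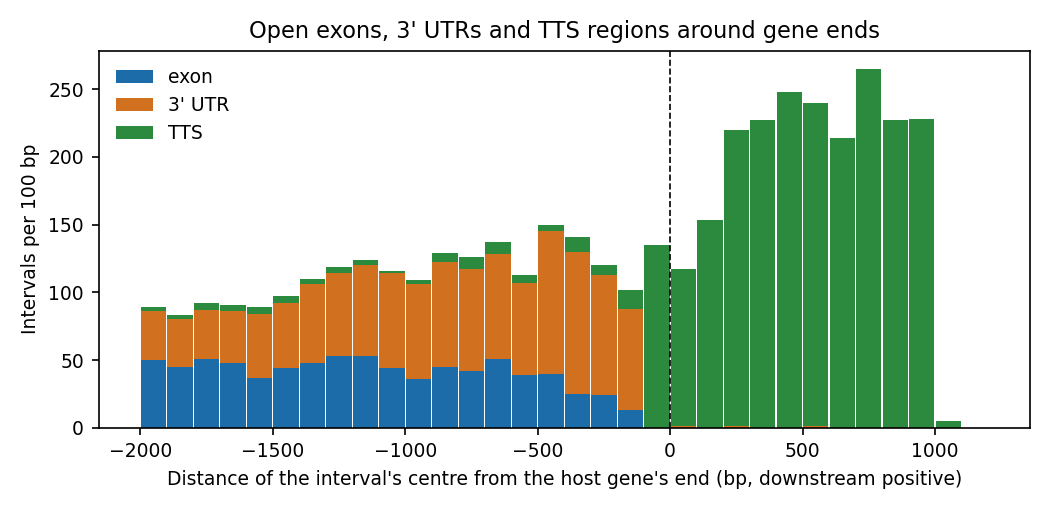
Number of intervals per 100 bp (y axis) by distance of the interval's centre from the end of the host gene (bp, downstream positive), stacked by class. The dashed line is the gene's end. TTS intervals number between 116 and 153 per 100 bp from 100 bp before to 200 bp after the end, and between 214 and 265 from 200 to 1000 bp after it.

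The gene in which an interval lies was often not the gene the list assigns to it, since the list names the nearest TSS. Among 11519 intervals with a host gene found at its locus in RefSeq, the nearest TSS belonged to another gene in 3400 (29.5%). This was the case for 39.1% of 3' UTR, 33.4% of TTS, 24.0% of exon and 2.13% of 5' UTR intervals. The study's own genes give examples. Stat3 held an interval of 225 bp in exon 20, one of 96 bp in its 3' UTR and one of 141 bp at its end, and all 3 are assigned to Stat5a, the neighbouring STAT gene. Cd34, the surface marker used for the sort, held 117 bp in its 3' UTR and 508 bp at its end, the latter entered 2 times, and both are assigned to Gm16897. Tcf7, a Wnt pathway factor of lymphoid and progenitor cells, held 165 bp in its 3' UTR, assigned to Skp1. Sox4 and Gabpa held none.

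Runx1, a master regulator of blood stem cells, held 4 intervals that are all assigned to it. They measured 247 bp at exon 1 of the annotated transcript, 213 bp at its exon 5, and 350 and 162 bp at its end, each entered once. Kit, the receptor of stem cell factor, held 328 bp in exon 9 and 441 bp at its end, each entered once. The end intervals of both genes were wider than the median of their class, 133 bp.

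The intervals lay in 7377 host genes, 35.6% of the 20743 genes named in the ATAC list. Among protein-coding genes the share was 39.9% (7078 of 17742). Most host genes had 1 interval (4765 genes) and 128 had 5 or more. The gene with the most was Ttn, which encodes the giant muscle protein titin. Its 24 intervals, all exonic, were 73 to 387 bp wide with a median of 112 bp, and 0 of them were entered more than once. No interval within 1000 bp of a TSS was assigned to Ttn. The adhesion receptor gene Adgrv1 and the sperm protein gene Zan followed with 11 each. The ubiquitin ligase gene Ubr4 and the endocytic scaffold gene Itsn1 had 9 each, and Muc5b, Hectd4, Fat2 and Mdga1 had 8 each. Among these, Ubr4 had the most entered more than once, 3 of 9, followed by Hectd4 with 2 of 8. By gene length in 5 classes, the share of protein-coding genes with an interval was 30.9% in the shortest and 40.1% to 43.2% in the other 4.

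An interval within 1000 bp of the TSS was listed for 71.1% of protein-coding host genes. Only intervals that the list assigns to the gene counted, so one nearer another gene's TSS did not. Among protein-coding genes that held no open exon, UTR or gene end the share was 51.9% over all such genes of the RefSeq table. It was 72.1% over those of them named in the ATAC list, where such a gene appears only through an interval of another kind, promoters included. Intervals whose host promoter was listed had a median width of 125 bp (123 to 127) and 10.7% were entered more than once. Intervals whose host promoter was not listed had 126 bp (122 to 130) and 10.6%. The intervals of both medians overlapped.

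The X chromosome held 45 intervals (0.387%, 0.282 to 0.517), or 4.66 per 100 protein-coding genes. Each autosome held between 46.2 and 68.6 per 100. Introns had a like share on X, 0.373%, and promoters had 2.07%. The Y chromosome held 0.

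The widest intervals were those with the most entries. The widest exonic one spanned 1484 bp of exon 6 of Prr36 and was entered 7 times. Exon 3 of Nat8f5 (entered 5 times) and exon 13 of the Ras regulator Rasa4 (entered 6 times) had 1261 bp each. The widest in a 3' UTR was at Rcn3, an endoplasmic reticulum calcium-binding protein, with 1317 bp and 8 entries, the most of any. The scaffold gene Magi2 had 1187 bp and the stress sensor Atf6 1114 bp. At gene ends the widest lay after Parp10 (1378 bp, nearest TSS Plec), after the CNC factor gene Nfe2l3 (1153 bp, nearest TSS Hnrnpa2b1) and after the splicing factor gene Srsf7 (1146 bp). In 5' UTRs they were at Zfp503 (1083 bp), the AP-1 gene Jund (1065 bp) and Coq10a (973 bp). Only the centre had to lie more than 1000 bp from a TSS. Centres lay 1096 bp from it at Jund, 1161 bp at Coq10a and -1073 bp, upstream of Plec, at Parp10. These intervals thus reached closer than 1000 bp to a TSS, and that at Coq10a covered a RefSeq start of its own gene.

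Gene lists for blood and for common cell functions were counted beside the 39.9% of protein-coding genes with an interval and the 6.31% with one entered more than once. The corresponding share over all listed genes for the latter was 5.56%. Blood stem and progenitor factors had an interval in 17 of 27 genes, 63.0% (42.4 to 80.6), and one entered more than once in 2 of 27. Nfe2, an erythroid and megakaryocytic factor, had 740 bp in its exon 3 entered 4 times, 606 bp at its end entered 2 times and 111 bp in exon 3 entered once. Bcl11a, a repressor of fetal globin, held 271, 239 and 104 bp, each entered once. Mecom, a stem cell factor, held 158 bp and a pair of intervals of 73 bp.

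Cytokine and growth factor receptors had an interval in 9 of 22 genes and one entered more than once in 3. The interleukin 6 receptor gene Il6ra held 276 bp in its 3' UTR entered 2 times, 295 bp in exon 8 and 179 bp in exon 2. Its signalling partner Il6st held 168 bp in a 5' UTR, 127 bp in its 3' UTR and 172 bp at its end, each entered once. The macrophage receptor gene Csf1r held 4 intervals, of which the widest, 528 bp at its end, was entered 2 times. Among stem and progenitor surface markers 9 of 18 genes had an interval. JAK-STAT genes had one in 12 of 29, and 5 of these 12 had all of theirs assigned to other genes. Stat2 held 362 bp in exon 19 entered 2 times, and Ptpn11, a phosphatase of cytokine signalling, held 194, 79 and 73 bp. Wnt pathway genes had one in 20 of 33. The end of Ctnnb1, which encodes beta-catenin, held 515 bp entered 2 times, assigned to Mir7090.

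Chromatin regulators had an interval in 28 of 42 genes, 66.7% (50.5 to 80.4), and splicing factors in 27 of 45, 60% (44.3 to 74.3). The chromatin list was made of long genes, with a median length of 71.8 kb. The remodeller gene Chd7 held 7 intervals of 73 to 214 bp. The DNA demethylase genes Tet2 and Tet3 held 5 each. Those of Tet2 had 103 to 235 bp, and the widest of Tet3 had 513 bp in its last exon. Of the 46 splicing factor intervals 23 lay at gene ends, against 28.6% of all the intervals described. Hnrnph1 had 3 of them in a row, of 73, 260 and 528 bp. Genes of mRNA decay and translation control had an interval in 15 of 33. Of their 28 intervals 8 (28.6%) were entered more than once, against 10.6% of all the intervals described. The translation regulator Eif4g2 had 4 at its last exon and end, of 311, 395, 406 and 661 bp. It held 3 of the 8 entered more than once. The mRNA decay factor gene Zfp36l2 had 957 bp in exon 2 entered 6 times. Immediate early genes had one in 15 of 27, and the end of Junb held 485 bp entered 4 times. Cytoskeleton and adhesion genes had one in 17 of 32.

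Markers of blood lineages and of tissues outside the blood were counted as well. An interval lay in 6 of 20 erythroid genes, 8 of 22 neutrophil and monocyte genes, 14 of 23 mast cell and megakaryocyte genes, 10 of 25 lymphoid genes and 15 of 26 non-blood genes. The shares of erythroid genes, 30% (11.9 to 54.3), and of neutrophil and monocyte genes, 36.4%, were under the 39.9% of protein-coding genes. The share of non-blood genes, 57.7% (36.9 to 76.6), was above it, as was that of mast cell and megakaryocyte genes, 60.9%. Lymphoid genes stood at 40%. Each of these exact intervals included 39.9%. The erythroid factor gene Klf1 held 1 interval of 606 bp, entered 4 times. The red cell membrane genes ranged widely: Ank1 held 627, 438, 178 and 123 bp, Slc4a1 296, 236 and 160 bp, and Epb42 100, 99 and 73 bp. The lymphoid gene Cd3d held 699 bp in its 3' UTR. The mast cell protease gene Cpa3 held 390 bp at its end. Among non-blood genes the median width was 144 bp, and 1 of their 22 intervals was entered more than once. Over all the intervals described these were 125 bp and 10.6%. The same lists were counted at promoters. Over all genes named in the ATAC list, 68.0% were assigned an interval within 1000 bp of a TSS. An interval within 1000 bp of the TSS was listed for 15 of 18 stem and progenitor surface markers, with 7 of at least 500 bp, among them Cd34 with 703 bp and Kit with 1232 bp. It was listed for 12 of 26 non-blood markers, with 0 of at least 500 bp. Erythroid markers had one at 12 of 20 promoters, with 6 of at least 500 bp, and lymphoid markers at 11 of 25, with 3. Neutrophil and monocyte markers had one at 13 of 22, with 4, and mast cell and megakaryocyte markers at 19 of 23, with 5. No share over all genes is given for this width.

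Few of the intervals carried a peak of a mapped factor. STAT3 peaks overlapped 19 of 11633 by at least 1 bp, 0.163% (0.0984 to 0.255), against 0.488% of all distinct ATAC intervals. SOX4 peaks overlapped 11, 0.0946% (0.0472 to 0.169), against 0.114%. GABPa peaks, from lin-CD34- cells, overlapped 9, 0.0774% (0.0354 to 0.147), against 0.351%. With the peak's centre required inside the interval, the SOX4 share was 0.02579% and the GABPa share 0.008596%. With at least 50% of the interval covered, the STAT3 share was 0.09456% and the SOX4 share 0.03438%. No interval carried peaks of more than 1 factor, so 39 carried any. Promoters carried STAT3 at 2.02% and GABPa at 1.504%, more than 10 times the share at exons and gene ends, whereas for SOX4 the promoter share was 0.184%. In introns outside repeats the STAT3 share was 0.241% (0.208 to 0.279). The GABPa share there was 0.147% (0.121 to 0.177) and the SOX4 share 0.102% (0.0806 to 0.128). For each factor the counting interval of exons, UTRs and gene ends overlapped that of introns.

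TTS windows had a higher share than exons for all 3 factors, with overlapping counting intervals. For STAT3 it was 10 of 3330 (0.300%, 0.144 to 0.552) against 7 of 5870 exons (0.119%, 0.0480 to 0.246). For SOX4 it was 7 (0.210%) against 3 (0.0511%), and for GABPa 4 (0.120%) against 3 (0.0511%). In 3' UTRs the numbers were 2, 1 and 2 of 2339. In 5' UTRs it was 0 of 94 for each factor, where 3 counts of 94 would be a share of 3.19% and the exact interval reaches 3.85%.

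**Figure D4:**
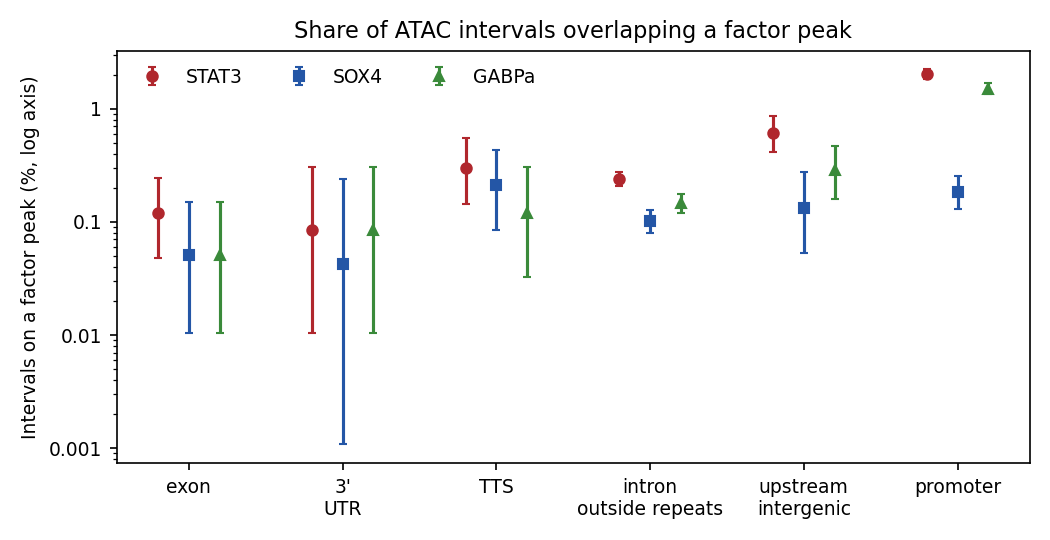
Share of distinct ATAC intervals that overlap a STAT3, SOX4 or GABPa peak by at least 1 bp (%, log axis) by annotation. Bars are exact 95% intervals. STAT3 and GABPa reach 2.02% and 1.504% at promoters and lie at or under 0.300% at exons, 3' UTRs and TTS windows, while SOX4 ranges between 0.0428% and 0.210% over the 6 classes.

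STAT3 lay on the wide, repeatedly entered intervals. The 19 had a median width of 397 bp, and 14 of them were entered more than once. Per interval, STAT3 was at 1.13% (0.620 to 1.89) of those entered more than once and at 0.0481% (0.0156 to 0.112) of those entered once. Introns showed a like split, with 1.66% and 0.0482%. All 11 SOX4 intervals were entered once, 0.106% (0.0528 to 0.189), and SOX4 was on 0 of the 1238 entered more than once (0 to 0.298), so the counting intervals overlapped. In introns SOX4 was on 0.222% (0.135 to 0.342) of those entered more than once and on 0.0859% (0.0650 to 0.111) of those entered once. Of the 9 with GABPa, 1 was entered more than once. A wide interval meets a peak more easily, and the part of width in these shares was not tested.

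STAT3 peaks annotated to exons, UTRs or gene ends away from a TSS were on open chromatin in 16 of 27 cases (59.3%, 38.8 to 77.6). For SOX4 it was 12 of 185 (6.49%, 3.396 to 11.1) and for GABPa 14 of 113 (12.4%, 6.94 to 19.9). Read depth differs between the lists in an unknown way, and the lists hold 885, 3016 and 2525 peaks. The STAT3 peaks on the intervals had 22 to 101 tags, the reads counted in a peak, with a median of 34.5 against 30 over the list. The SOX4 peaks had 8 to 19 tags and a median of 14 against 10, and the GABPa peaks 10 to 32 and a median of 20 against 14.

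The highest STAT3 score on an open gene end was after Mafg, which encodes a small Maf protein that pairs with NF-E2 factors in blood cells. Its peak had 101 tags and a score of 210.65 (a multiple of the negative log10 p-value), 7th in the STAT3 list, and covered 203 bp of a 351 bp interval entered 3 times. The list assigns this interval to Sirt7. In exon 4 of the zinc finger gene Zfp608 a peak of 47 tags met 43 bp of a 202 bp interval. In exon 3 of Mocs1, a gene of molybdenum cofactor synthesis, a peak of 44 tags lay wholly within a 925 bp interval entered 6 times.

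At the end of Apoe, which encodes apolipoprotein E, 1 peak of 46 tags met a pair of intervals, of 145 and 73 bp. These count as 2 of the 19, so 18 STAT3 peaks are involved. Peaks of 29 and 35 tags lay at the ends of 4930526I15Rik and Plekho2. In exon 3 of the ETS factor gene Etv5 a peak of 51 tags touched only 3 bp of a 123 bp interval. Peaks of 30 tags lay in exon 8 of Wwc2 and in exon 4 of Bach2, a repressor of lymphoid cells. Among the others were the end of the cell death gene Bax and an exon of Angpt1, a ligand of the stem cell receptor Tek, with 22 and 27 tags. Bax and Angpt1 were picked with their values in view.

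**Figure D5:**
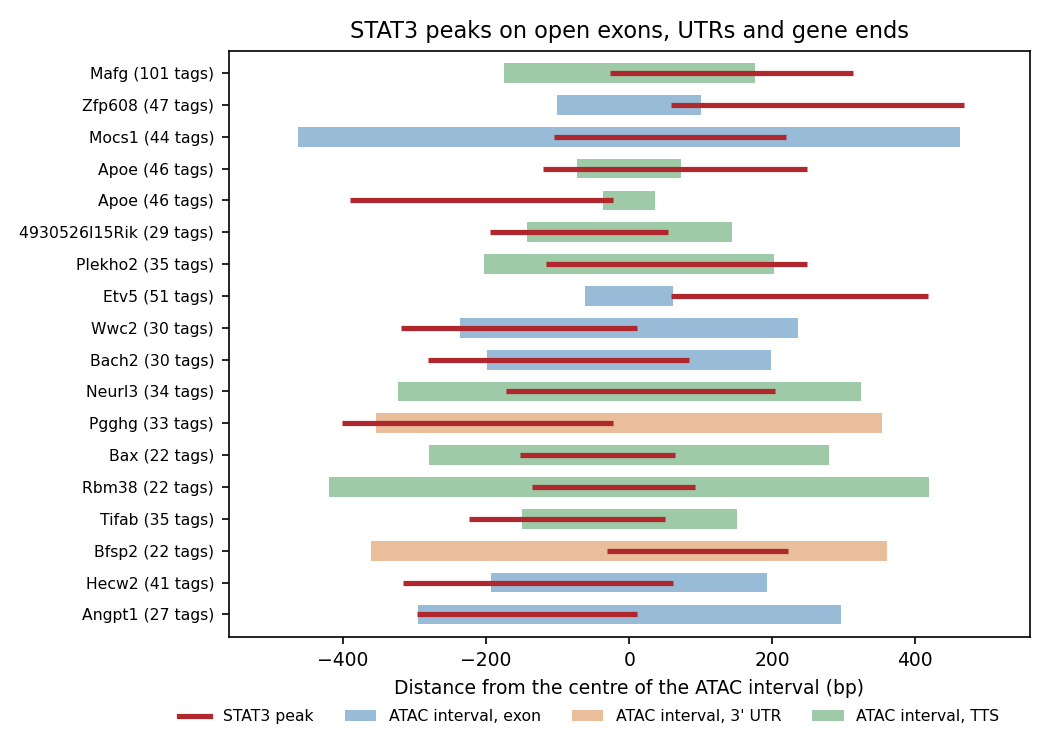
Shown are 18 of the 19 open intervals overlapped by a STAT3 peak, ordered by the peak's score, with distance from the interval's centre in bp. Wide bars are ATAC intervals coloured by class and red lines are the STAT3 peaks, with their tags beside the gene. Most peaks reach over the centre, and the peak at Etv5 touches its interval by 3 bp only.

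The SOX4 peaks with the highest scores lay at the end of Tbp, the TATA-binding protein (15 tags, score 112.06, on 244 bp), at the end of the histone demethylase gene Kdm4b (18 tags, on 84 bp), in exon 15 of Glb1l (17 tags, 10 bp shared with a 92 bp interval), in exon 5 of the nuclear pore gene Nup43 (14 tags, 16 bp shared with 629 bp) and in exon 19 of Pcnx2 (19 tags, on 106 bp). The peak at Pcnx2 covered its interval completely, while those at Glb1l and Nup43 met its edge. The GABPa peaks with the highest scores lay at the end of Axl, a receptor tyrosine kinase (28 tags, score 331.29, on 419 bp entered 2 times), in exon 5 of the LIM homeobox gene Lhx9 (29 tags), at the end of D330050I16Rik (32 tags), at the end of the scaffold gene Spag9 (22 tags) and in exon 20 of Adam22 (15 tags). Each of these 5 GABPa peaks covered its interval completely, and they were 667 to 2279 bp wide. The interval at Axl is the one GABPa-marked interval entered more than once, and its nearest TSS is that of Hnrnpul1, 1463 bp away.

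The intervals stood about as close to other open sites as introns did. The median gap to the next ATAC interval was 1361 bp, and 41.3% had one within 1000 bp. For exons the gap was 1174 bp (1116 to 1230), for 5' UTRs 1114 bp and for 3' UTRs 1290 bp. For TTS windows it was 1879 bp (1759 to 1995). Introns outside repeats had 1450 bp and promoters 595 bp. Gene ends thus had the largest median gap of the classes compared. The list stops short of 5000 bp upstream of a TSS, so open sites farther out between genes could not count as neighbours. What this adds to the gap at gene ends was not tested.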

How the data were processed

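Per the submitters' processing notes, the tools were MACS2, HOMER, Bowtie2, Picard, SAMtools and CASAVA 1.7 on build mm10, with no role named. A shift of ATAC reads for the transposase is not mentioned there. The deposited ATAC list holds annotated positions, with 195295 entries at 143365 distinct intervals, and why an interval is entered repeatedly is not stated. In the factor lists, tag counts are whole reads per peak, the score is a multiple of the negative log10 p-value, the fold is the ratio over background and the false discovery rate is in percent, all per the file headers.

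Distinct intervals were used, and overlap needed 1 bp. A host gene is the gene of the annotated transcript, found in RefSeq (GRCm38.p6) within 1000 bp of its locus. An open promoter has an interval within 1000 bp of its TSS that the list assigns to that gene. An interval nearer another gene's TSS does not count for it. Host genes matched for 11519 intervals. The members and the 20 gene lists were chosen with earlier results of these data known, and the pattern for ribosomal protein genes was narrowed after it had taken in kinase genes. Named were the 10 genes with most intervals, the 3 widest per class, those under the 10 highest STAT3 and 5 highest SOX4 and GABPa scores, up to 4 genes per list, and the study's genes. Some genes that met this rule are not reported here. Motifs in the intervals themselves were not analysed here, as no genome was used. Alternatives covered the distance from the TSS, entries, overlap rules, scores, chromosomes and promoter windows. Overlaps were tested on simulated data. Versions were matplotlib 3.10.9, scipy 1.17.1, pandas 2.3.3 and numpy 2.4.6 under Python 3.11.15.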

Additional observations from a re-analysis of the deposited data

How the results depend on the processing

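Of 67 recomputed values under 14 other settings, 45 moved by less than their counting interval (counts: by less than 1.5 times) and 22 moved by more, with no direction to reverse. The setting that kept repeats and CpG islands could move nothing, as that clause removed 0 intervals, and its values are among the 45. With the limit at 500 bp, the last-exon share was 19.32% (20.49% as reported) and 71.75% of host genes had an open promoter (70%). With it at 5000 bp these were 18.39% and 72.49%, and 150 genes of the 16 named lists had an interval (228). With promoters reaching to 5000 bp, 91.96% of host genes had an open one. STAT3 fell from 0.1633% to 0.09456% where at least 50% of the interval had to be covered, and likewise to 0.09456% with peaks at or above the median score. SOX4 fell from 0.09456% to 0.03438% with 50% covered and to 0.02579% with the peak's centre inside. GABPa fell from 0.07737% to 0.008596% with the centre inside and to 0.03438% with 200 bp around both centres. The gap to the next of the described intervals alone was 6622 bp. Keeping only intervals entered more than once, a setting chosen after seeing the data, left 1238 with a median of 386 bp, 23.25% of exonic ones in the last exon, 48 list genes, STAT3 at 1.131% and SOX4 at 0%. No paired analysis was possible because every group was 1 library. Library depth is unknown, so an exon not listed is not shown to be closed.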

Other observations

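Gene families outside the blood lists were also counted for an open exon, UTR or gene end. One was held by 39.9% of protein-coding genes and by 35.6% of all genes named in the ATAC list. In the shortest length class of protein-coding genes the share was 30.9%. Olfactory receptor genes, which are short and clustered, held one in 53 of 378 genes (14.0%, 10.7 to 17.9). Of their 56 intervals 45 lay at gene ends, against 28.6% of all the intervals described. The median length of these genes was 0.954 kb, and the rule requires more than 1000 bp from a TSS. It thus leaves little room for exonic intervals, and both numbers follow in part from the rule. The median width of the 56 intervals was 103.5 bp. Olfr70, however, held 417 and 567 bp at its end, each entered more than once, and the end of Olfr9 held 686 bp. Ribosomal protein genes had a median length of 3.139 kb, so the rule leaves out part of such a gene as well. They had a listed promoter in 68 of 75 and an interval in 19 (25.3%), with 18 of 21 intervals at gene ends. Rpl19 held 250 and 292 bp there, Rps9 439 bp and Rps19 421 bp. Zfp zinc finger genes held one in 118 of 349 (33.8%, 28.9 to 39.0), an exact interval that included the 35.6% of all listed genes. Of their 175 intervals 90 lay in exons, near the 50.5% of all intervals. The widest named was 1040 bp in an exon of Zfp335. Hox genes held one in 13 of 34 with a listed interval (38.2%, 22.2 to 56.4), an exact interval that included 39.9%. Among them was 318 bp in an exon of Hoxb3 entered more than once. MicroRNA genes held one in 9 of 811, where only the TTS label can place an interval because non-coding exons are outside the rule, among them 328 bp at the end of Mir17hg, the host of a cluster known from blood cancers. A further 488 intervals had a microRNA gene as their nearest TSS.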
